A study of Mus musculus with 12 samples.

Results

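A set of 10 glutamate receptor genes, out of 44345 genes listed, was followed in mouse dorsal root ganglia, where the somata of sensory neurons lie. They were chosen by symbol from the 26 genes of the family, with earlier results of these data known, and each symbol matched 1 entry. They are the AMPA receptor subunit genes Gria1, Gria2, Gria3 and Gria4, the kainate receptor subunit genes Grik1 and Grik5, the NMDA receptor subunit genes Grin1 and Grin3a, and the metabotropic receptor genes Grm7 and Grm8. All 10 passed the filter on low values, with 568 to 14518 reads per library behind each value.

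The mice were C57BL/6, aged 6 to 8 weeks, and the sciatic ganglia (L4 to L6) of 2 mice were pooled for each library. There were 4 groups of 3 libraries: vehicle, which was PBS by daily gavage for 10 days; IPA (indole-3-propionic acid, a bacterial metabolite of tryptophan) at 20 mg/kg by the same schedule; and the same 2 treatments followed by sciatic nerve crush, with ganglia taken 3 days later. In the crushed IPA group the gavage continued over those 3 days, and the labels do not make clear whether vehicle gavage did. No genetic change is named for any group, and the labels give neither sex nor batch. The comparisons ask what the crush did to receptor transcripts, and whether IPA shifted them before or after it.

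Glutamate is the transmitter that sensory neurons release onto the spinal cord. AMPA, kainate and NMDA receptors are ion channels, each built of 4 subunits, while metabotropic receptors act through G proteins. In sensory neurons such receptors are known on the cell body, on peripheral endings and on the central terminals, where they tune transmitter release.

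The libraries held between 40938034 and 62501969 recovered reads, and values are on a scale like CPM (reads of a gene relative to the library's depth) on which 1 read was worth 0.0130 to 0.0199. For the tissue label, all 10 sensory neuron markers were present, and their summed value was 8836 to 9942 in vehicle libraries. Of 10 spinal cord markers, 6 (Olig1, Olig2, Mog, Slc32a1, Slc6a5 and Chat) stayed below 0.5 in every library, with Slc32a1 at 0 in 10 of the 12 libraries and Olig2 at 0 in 7, and Mobp lay between 0.109 and 0.817. The other 3 moved with the crush. Under vehicle Aldh1l1 rose (1.18, limma adjusted p = 1.16e-08), from 8.38 to 9.52 in intact libraries to 17.8 to 21.3 in crushed ones. Aqp4 fell (-0.81, limma adjusted p = 0.000101), from 6.93 to 9.21 to 3.90 to 5.62. Both were called in the same direction under IPA. Gad2 was at most 0.0379 in intact and between 0.509 and 0.935 in crushed libraries. It passed the filter on low values only through its crushed libraries, so its test adds no support. The part of these 3 markers in the receptor results was not tested. Skeletal muscle markers summed to between 31.8 and 254 over all libraries. Of the 8, Tnnc2 did not pass the filter, and none of the 7 tested was called in any comparison below. All 7 nonetheless lay higher after crush (median log2 change 0.971 under vehicle, 0.989 under IPA). With IPA all 7 lay lower (median -0.605 with intact nerve, -0.727 after crush). The part of muscle in the receptor results was not tested. Replicate 1 of the crushed vehicle group stood apart from its replicates, with a chi-square per degree of freedom of 26.3 and 24.1 against them, where the other two differed by 5.38. Replicate 3 of crushed IPA differed from its replicates by 22.4 and 11.2, where the other two differed by 6.74, and replicate 3 of vehicle by 10.0 and 16.3, against 4.55. For the 10 receptor genes, values without a library are given where they change a call or a direction. For the other lists they are given for some genes and counts.

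Upstream sequence was matched for 6 of the 10 genes (Gria2, Gria4, Grik5, Grin1, Grm7 and Grm8) in the RefSeq promoter table of build GRCm38.p6. The 250 bases before the start site are shown for 3 of them: Gria2, the gene with the largest fall after crush; Grik5, the gene that was not called; and the first start site of Grm8, the sole window among the 6 genes with an AP-1 match, AP-1 being a family of factors known to be induced by nerve injury. Capitals mark matches to TGANTCA (AP-1), TGACGTCA (the cyclic AMP response element, CRE) or GGGCGG (GC box), searched on both strands. All 3 genes lie on the minus strand, and each window is printed 5′ to 3′ in the direction of transcription.
Gria2, chr3:80802836-80803085: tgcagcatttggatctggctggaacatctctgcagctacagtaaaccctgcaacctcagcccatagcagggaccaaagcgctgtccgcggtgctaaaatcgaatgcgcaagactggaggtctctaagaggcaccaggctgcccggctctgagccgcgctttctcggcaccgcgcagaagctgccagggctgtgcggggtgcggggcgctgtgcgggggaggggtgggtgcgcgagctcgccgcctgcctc
Grik5, chr7:25072370-25072619: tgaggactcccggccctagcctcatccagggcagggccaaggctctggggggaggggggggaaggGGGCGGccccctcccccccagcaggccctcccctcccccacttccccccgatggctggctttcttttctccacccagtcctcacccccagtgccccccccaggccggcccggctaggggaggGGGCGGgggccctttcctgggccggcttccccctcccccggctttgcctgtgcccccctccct
Grm8, chr6:28135147-28135396: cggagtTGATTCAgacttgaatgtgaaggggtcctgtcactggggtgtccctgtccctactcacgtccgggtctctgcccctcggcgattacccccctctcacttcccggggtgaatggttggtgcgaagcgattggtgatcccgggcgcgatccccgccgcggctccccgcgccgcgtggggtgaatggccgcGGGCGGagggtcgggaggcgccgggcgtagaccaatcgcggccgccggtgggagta
The Gria2 window held none of the 3 motifs, and neither did those of Gria4 and Grin1. The Grik5 window held 2 GC boxes, beginning 185 and 63 bases before the start site, and 75.2% of its bases were G or C against 64.8% in Gria2 and a median of 52.4% over all 32851 windows of this length. The Grm8 window held an AP-1 match beginning 244 bases before the start and a GC box at 56 bases before it, and each of the 2 Grm7 windows held a GC box. Among all windows, 6.75% held the AP-1 motif, 1.55% the CRE and 32.7% the GC box. By gene, with a match at any start site counted, the shares were 7.82%, 1.77% and 35.4%. These matches describe letters only.

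Per kilobase of exon, the scale on which levels of different genes can be set side by side, Grik1 was the highest of all 26 family genes in vehicle libraries, at 32.9 CPM-like units per kb (30.9 to 34.0 over the 3 libraries). Grik1 encodes the kainate subunit GluK1, long known as the prominent kainate receptor subunit of small sensory neurons. Gria4 at 11.9 per kb and Grik5 at 11.4 per kb came next and overlapped between libraries. Grm7 at 9.44, Grin1 at 8.06 and Gria1 at 3.34 per kb followed, each without overlap with its neighbour among the 10. Grin3a at 2.34 and Gria3 at 2.16 per kb overlapped. Grm8 at 1.76 per kb and Gria2 at 1.58 per kb were the lowest of the 10. The order depends on the length used: with the longest transcript in place of all exons Grin1 took the second place and Gria2 again the 14th.

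**Figure D1:**
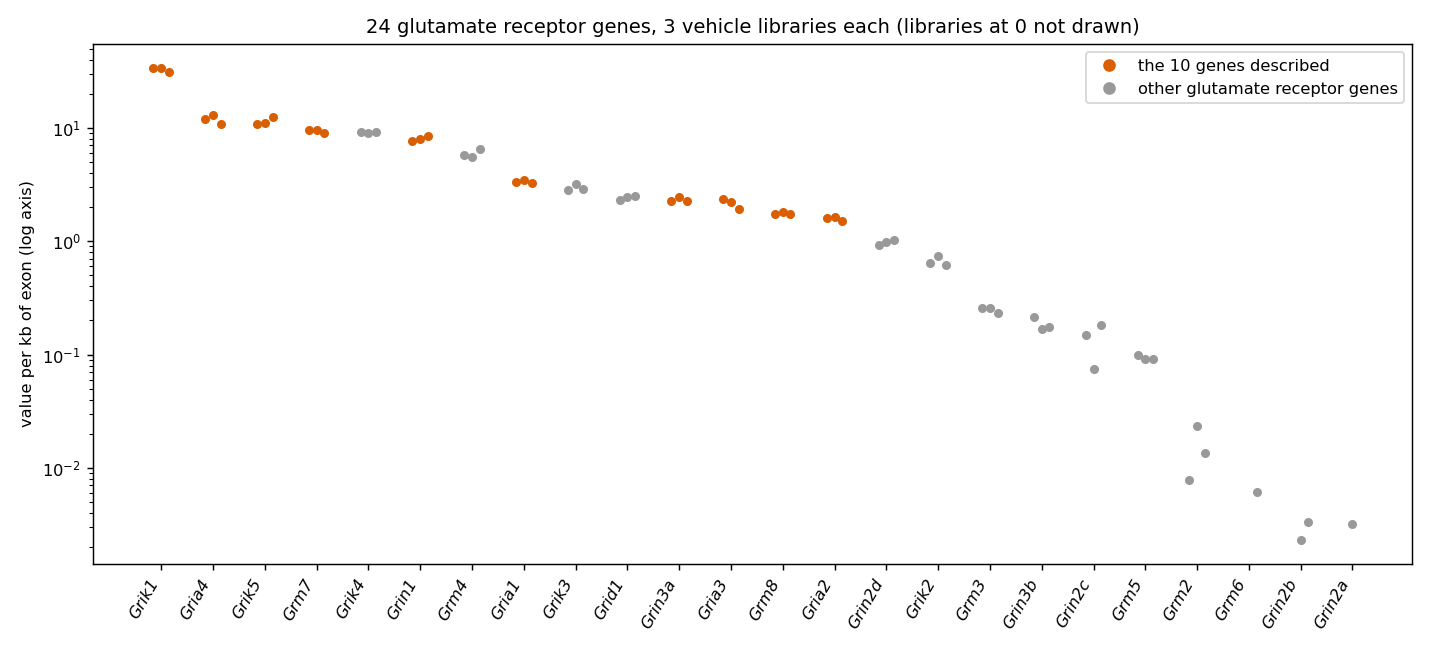
Levels of 24 of the 26 glutamate receptor genes in the 3 vehicle libraries, per kb of exon on a log axis, each dot a library; the 10 genes described are orange and the 14 others drawn are grey. Grik1 stands at the top at 32.9 per kb, Gria2 is the lowest of the 10 at 1.58 per kb, and Grin2b and Grin2a are last at 0.00187 and 0.00106 per kb.

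Of the 16 other family genes, Grik4 at 9.18 per kb, Grm4 at 5.94, Grik3 at 2.98 and Grid1 at 2.42 lay within the range of the 10. Lower were Grin2d at 0.979 per kb, Grik2 at 0.666, Grm3 at 0.249, Grin3b at 0.186, Grin2c at 0.136 and Grm5 at 0.0941. Close to 0 were Grm2 at 0.0149 per kb, Grm6 at 0.00203, Grin2b at 0.00187 and Grin2a at 0.00106, and these 4 did not pass the filter. Grin2a and Grin2b encode the GluN2 subunits that predominate in forebrain. In these ganglia Grin2d carried 87.7% ± 4.19 (SD, n = 3) of the summed GluN2 level per kb in vehicle. Of all 7 NMDA receptor genes summed per kb, Grin1 made up 68.9% ± 0.691, Grin3a 20.0% ± 1.02 and Grin2d 8.37% ± 0.0763. These shares depend on the length used. With the longest transcript they were 77.3% ± 0.66, 16.2% ± 0.839 and 5.08% ± 0.0344.

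Most of the receptor transcripts were lower after sciatic nerve crush. Under vehicle, 9 of the 10 genes fell and 1, Grik5, was not called, at an adjusted p under 0.05 in limma with Benjamini-Hochberg adjustment over 15603 genes. Over all genes tested, 24.4% were called lower and 23.6% higher. Because the 10 were chosen with earlier results of these data known, their count beside that share is a description. Of the 11 other family genes tested, 5 were called lower and 0 higher under vehicle. The 10 genes had a median log2 change of -0.53, with a range of -1.09 to -0.10, beside a median of -0.0045 over all genes. In mice given IPA the count was again 9 lower and 0 higher, with a median of -0.45 beside -0.016 over all genes, of which 22.5% were called lower and 21.2% higher. The crushed and intact libraries did not overlap for the same 9 genes in either treatment; over all genes that held for 26% (lower) and 25.4% (higher) under vehicle and for 30.8% and 27.2% under IPA. Less RNA per neuron and fewer cells of a type that makes a receptor cannot be told apart in whole ganglia.

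**Figure D2:**
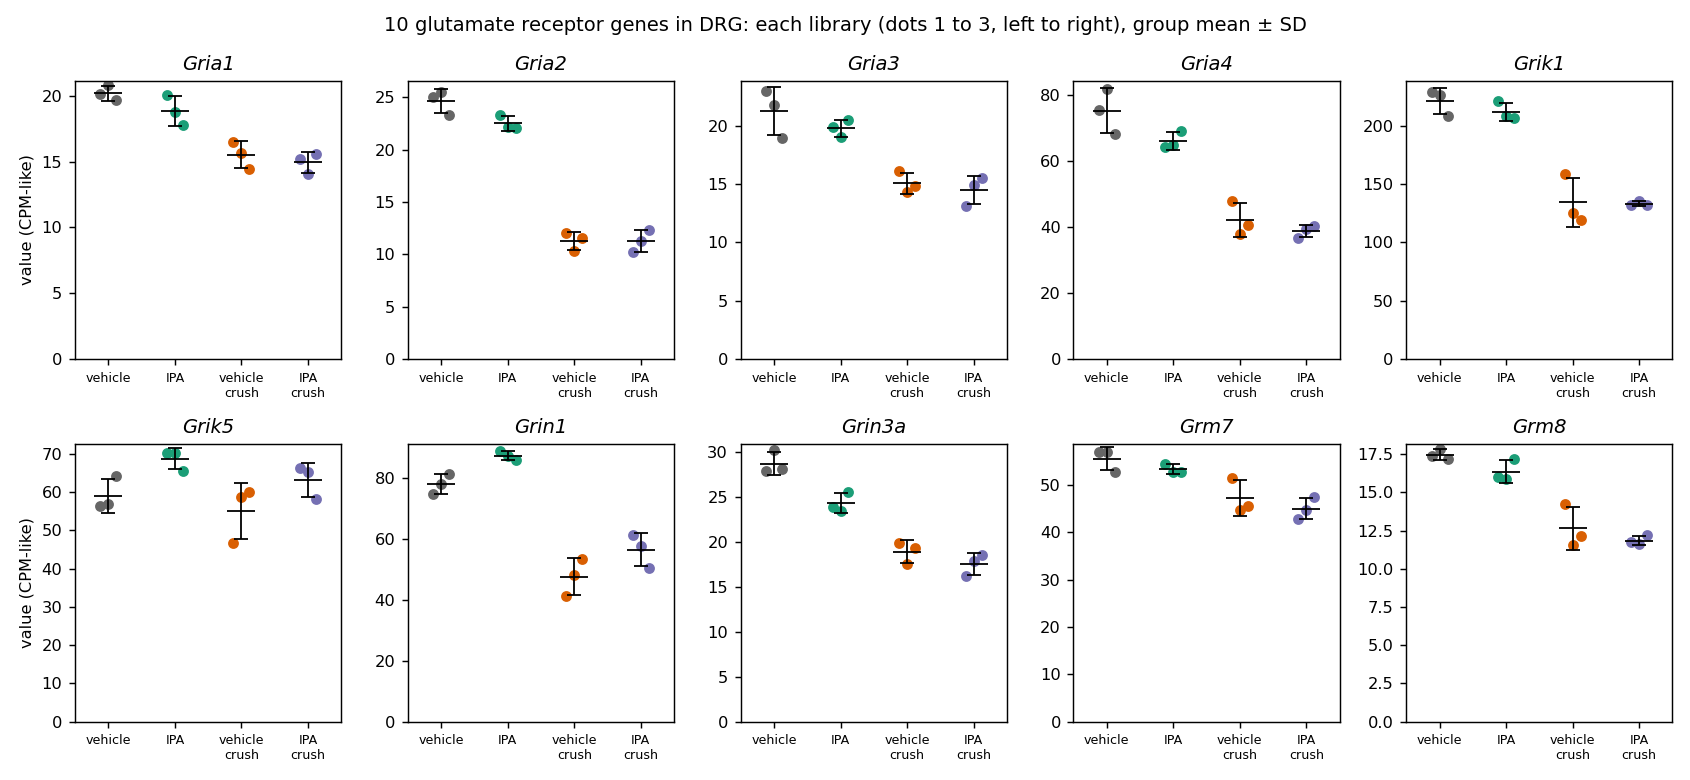
CPM-like value of each of the 10 genes in all 12 libraries, by group, with the group mean ± SD (n = 3); each vertical axis starts at 0. Crushed libraries lie below intact ones without overlap for every gene except Grik5, and Gria2 shows the largest fold difference, with 22.0 to 25.5 in intact against 10.2 to 12.3 in crushed libraries.

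The AMPA receptor genes code for the subunits of the fast glutamate channel. Gria2 (ENSMUSG00000033981, chr3:80681450-80802835, mm10) encodes GluA2, the subunit whose edited form keeps the channel closed to calcium. Its values were 25.1, 25.5 and 23.3 in vehicle, 23.3, 22.2 and 22.0 in IPA, 11.99, 10.3 and 11.5 in crushed vehicle and 10.2, 11.2 and 12.3 in crushed IPA libraries. The highest crushed library, at 12.3, lay far below the lowest intact one, at 22.0. Gria2 fell by 1.09 ± 0.076 (SE) on the log2 scale under vehicle (limma, adjusted p = 5.33e-08) and by 0.97 ± 0.076 under IPA (adjusted p = 2.11e-07), which is a fall of 53.2% and 49.0%. Of all genes tested, 0.391% had a lower log2 change under vehicle.

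Gria4 (ENSMUSG00000025892, chr9:4417896-4796234) encodes GluA4, the most abundant AMPA transcript of these ganglia per kb. It stood at 75.6, 81.9 and 68.3 in vehicle, 64.4, 64.9 and 69.2 in IPA, 48.0, 38.1 and 40.8 in crushed vehicle and 36.8, 39.3 and 40.3 in crushed IPA libraries. The intact and crushed groups were separated by a wide gap, and the intact IPA and vehicle groups overlapped. The log2 change was -0.83 ± 0.082 under vehicle (limma, adjusted p = 1.84e-06), and the change under IPA was -0.76 ± 0.082 (adjusted p = 4.62e-06).

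Gria3 (ENSMUSG00000001986, chrX:41400854-41678601), which encodes GluA3, had 23.0, 21.8 and 19.0 in vehicle, 19.9, 19.0 and 20.5 in IPA, 16.1, 14.3 and 14.9 in crushed vehicle and 13.2, 14.9 and 15.5 in crushed IPA libraries. Its lowest vehicle library, at 19.0, was as low as the IPA libraries, but no crushed library reached it. On the log2 scale the change was -0.48 ± 0.081 under vehicle (limma, adjusted p = 0.000263) and -0.44 ± 0.081 under IPA (adjusted p = 0.000632).

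Gria1 (ENSMUSG00000020524, chr11:57011387-57330244) encodes GluA1, which can form calcium-permeable channels on its own. Its values were 20.1, 20.8 and 19.7 in vehicle, 20.1, 18.7 and 17.8 in IPA, 16.5, 15.6 and 14.4 in crushed vehicle and 15.2, 14.0 and 15.6 in crushed IPA libraries. The gap between intact and crushed libraries was narrow, from 17.8 to 16.5. The log2 change was -0.37 ± 0.068 under vehicle (limma, adjusted p = 0.000488) and -0.33 ± 0.068 under IPA (adjusted p = 0.00146).

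Because the AMPA genes fell by unequal amounts, their make-up differed between intact and crushed ganglia. The 4 genes summed to 19.0 ± 1.39 per kb in vehicle and 11.5 ± 1.06 per kb in crushed vehicle libraries (SD, n = 3), and to 17.1 ± 0.333 and 10.8 ± 0.496 per kb with IPA. Gria2 made up 8.34% ± 0.238 of that sum in vehicle and 6.30% ± 0.330 in crushed vehicle libraries, 8.48% ± 0.329 in IPA and 6.69% ± 0.306 in crushed IPA libraries. Neither pair overlapped: the lowest intact share was 8.09% and the highest crushed share 6.99%. Gria1 made up 17.6% ± 0.870 in vehicle and 22.3% ± 1.53 in crushed vehicle libraries, while Gria4 held 62.7% ± 1.17 and 58.1% ± 1.79. With the longest transcript as the length, the Gria2 share was 9.93% ± 0.278 in vehicle and 7.48% ± 0.371 after crush. These shares are descriptions of genes already compared above, and no test was run on them.

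**Figure D3:**
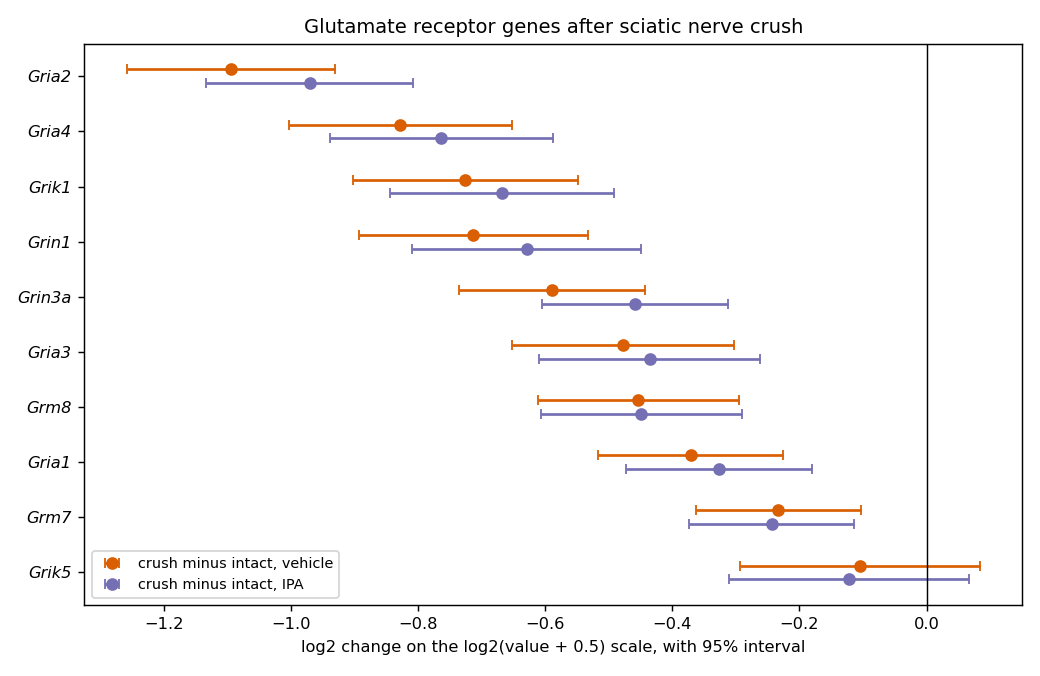
Log2 change after crush for each of the 10 genes, with 95% interval from limma, under vehicle (orange) and under IPA (purple), ordered by the change under vehicle. Gria2 lies farthest from 0 at -1.09 and -0.97, the intervals of Grik5 alone include 0, and both treatments give overlapping intervals for every gene.

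The kainate receptor genes took different courses. Grik1 (ENSMUSG00000022935, chr16:87895900-88290265) had 229, 226 and 208 in vehicle, 221, 208 and 207 in IPA, 158, 126 and 119 in crushed vehicle and 132, 136 and 132 in crushed IPA libraries. All crushed libraries were below all intact ones, and replicate 1 of crushed vehicle was the highest of them. Its log2 change was -0.73 ± 0.082 under vehicle (limma, adjusted p = 6.76e-06) and -0.67 ± 0.082 under IPA (adjusted p = 1.76e-05).

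Grik5 (ENSMUSG00000003378, chr7:25009849-25072346) encodes GluK5, a high-affinity kainate subunit that forms channels only together with a partner such as GluK1. Its values were 56.3, 56.8 and 64.2 in vehicle, 70.2, 70.3 and 65.6 in IPA, 46.7, 58.8 and 59.9 in crushed vehicle and 66.2, 65.2 and 58.2 in crushed IPA libraries. Here intact and crushed libraries overlapped, and the one low value belonged to replicate 1 of crushed vehicle, the library that stood apart. In log2 terms the change was -0.10 with a 95% interval of -0.29 to 0.084 under vehicle (limma, adjusted p = 0.348) and -0.12 with an interval of -0.31 to 0.067 under IPA (adjusted p = 0.283). Without that library the change under vehicle was 0.010. The lower ends of both intervals lie beyond the change of Grm7 given below and short of that of Grik1.

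In terms of make-up, Grik1 accounted for 57.5% ± 2.13 of the summed level per kb of the 5 kainate receptor genes in vehicle and 47.2% ± 5.27 in crushed vehicle libraries (SD, n = 3). The share of Grik5 was 20.0% ± 1.81 and 25.4% ± 4.39, and those libraries overlapped. With IPA the Grik5 share was 23.1% ± 0.455 in intact and 28.3% ± 1.11 in crushed libraries, which did not overlap. The sum itself was 57.1 ± 0.852 per kb in vehicle and 42.2 ± 1.89 in crushed vehicle libraries. With the longest transcript as the length, the Grik1 share was 68.5% ± 1.97 in vehicle and 58.8% ± 5.23 in crushed vehicle libraries. That of Grik5 was 16.5% ± 1.64 and 22.0% ± 4.22. No test was run on these shares.

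Grin1 (ENSMUSG00000026959, chr2:25291181-25319187) encodes GluN1, the subunit that every NMDA receptor needs. It had 74.9, 78.0 and 81.5 in vehicle, 89.0, 87.2 and 86.1 in IPA, 41.4, 48.2 and 53.5 in crushed vehicle and 61.2, 57.6 and 50.7 in crushed IPA libraries. The lowest intact library, at 74.9, lay above the highest crushed one, at 61.2. The log2 change was -0.71 ± 0.084 under vehicle (limma, adjusted p = 9.55e-06) and -0.63 ± 0.084 under IPA (adjusted p = 3.62e-05). An antisense gene, Grin1os, shares 1307 of the 9700 exon bases of Grin1, and whether reads were counted by strand is not given in the sources used here, so reads from the shared part cannot be told apart. The same limit applies to 130 of 5886 exon bases of Grm7, shared with the antisense gene Gm20387.

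Grin3a (ENSMUSG00000039579, chr4:49661611-49845744) encodes GluN3A, a glycine-binding subunit known to lower the calcium flow of NMDA receptors. Its values were 27.8, 30.2 and 28.0 in vehicle, 23.9, 23.4 and 25.5 in IPA, 19.9, 17.5 and 19.3 in crushed vehicle and 16.2, 17.9 and 18.5 in crushed IPA libraries. The 4 groups lay in descending steps, with overlap only between both crushed groups. Its log2 change was -0.59 ± 0.068 under vehicle (limma, adjusted p = 8.25e-06) and -0.46 ± 0.068 under IPA (adjusted p = 9.75e-05).

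The metabotropic pair belongs to group III, receptors that act through inhibitory G proteins and are known from presynaptic terminals. Grm7 (ENSMUSG00000056755, chr6:110645581-111567230) had 57.0, 56.9 and 52.8 in vehicle, 54.5, 52.8 and 52.8 in IPA, 51.6, 44.7 and 45.6 in crushed vehicle and 42.9, 44.8 and 47.5 in crushed IPA libraries. Replicate 1 of crushed vehicle, at 51.6, came close to the lowest intact value, 52.8. Its log2 change was the smallest of those called, -0.23 ± 0.060 under vehicle (limma, adjusted p = 0.00573) and -0.24 ± 0.060 under IPA (adjusted p = 0.00477).

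Grm8 (ENSMUSG00000024211, chr6:27275119-28135178) had 17.3, 17.8 and 17.2 in vehicle, 15.99, 15.8 and 17.2 in IPA, 14.2, 11.6 and 12.1 in crushed vehicle and 11.7, 11.6 and 12.2 in crushed IPA libraries. The 3 vehicle libraries were close together and the crushed ones all lower. In log2 terms the change was -0.45 ± 0.073 under vehicle (limma, adjusted p = 0.000179) and -0.45 ± 0.073 under IPA (adjusted p = 0.000221). The first upstream window of Grm8 carries the AP-1 match shown above, and those of its start sites 2 and 3 held none. A link between that match and the fall was not tested.

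Some cell type markers were called after crush as well. Over all genes, 24.4% were called lower and 23.6% higher under vehicle, and 22.5% and 21.2% under IPA. Of 10 general sensory neuron markers 5 fell and 2 rose under vehicle, with a median log2 change of -0.20. Their summed value was 9782 to 11020 in crushed vehicle libraries, no lower than in vehicle, but a few high genes carry that sum. Mean Tubb3 was 2703 in vehicle and 4085 in crushed vehicle libraries, and mean Uchl1 1804 and 2263, while mean Snap25 was 1312 and 807. The sum therefore does not follow most of the 10 markers. Of 8 markers of large neurons 7 fell and 1 rose (median -0.40), and of 8 markers of small nociceptive neurons 7 fell and 1 rose (median -0.54). The large neuron markers summed to 9057 to 9398 in vehicle and 6437 to 6827 in crushed vehicle, the nociceptor markers to 3320 to 3412 and 2425 to 2712. All 8 macrophage markers rose (median 1.52), from a sum of 33.6 to 40.2 to one of 116 to 122, while 1 of 8 satellite glia and 1 of 8 Schwann cell markers rose and none of either fell. Under IPA 2 satellite glia markers rose and 2 fell, no Schwann cell marker was called, 7 of 8 macrophage markers rose, 5 of 8 nociceptor markers fell and 1 rose, 7 of 8 large neuron markers fell and 1 rose, and 5 of 10 general neuron markers fell and 2 rose. The part of these shifts in the receptor results was not tested.

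The genes whose profile over the 12 libraries came closest to each receptor, by root mean square difference of log2 values centred on vehicle, were picked from 14020 genes, as a description. On this measure closeness means a similar course over the groups, such as a similar size of crush change. Whether close genes share a cell type was not tested. For Grik1 the closest was Scn10a (0.046), the sodium channel gene of nociceptors and itself among the nociceptor markers, then 1700066M21Rik (0.050) and Mal2 (0.055). For Gria2 they were Abcd2 (0.077), Plcd4 (0.084) and Rab37 (0.085), and for Gria4 Trhde (0.041), Ptgfr (0.043) and Sphkap (0.047). Gria1 was closest to Txndc16 (0.042), Synj2 (0.044) and Slc35f2 (0.044), and Gria3 had Cdk7 (0.054) and Slc35f1 (0.058) among its closest. Grik5 lay closest to Cul9 (0.043), Mllt6 (0.045) and Sppl3 (0.046), and Grin1 to Sema3f (0.054), Adam11 (0.060) and Prdm12 (0.063), a regulator of nociceptor development. Grin3a was closest to Megf9 (0.058), Golim4 (0.063) and Tmtc1 (0.070), Grm7 to Uqcrc2 (0.028), Nsf (0.028) and Chn1 (0.032), and Grm8 to Bend6 (0.032), Tpgs2 (0.034) and Usp31 (0.042). Among the 10 themselves Gria3 and Grm8 were the closest pair (0.076) and Gria2 and Grik5 the farthest (0.81).

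The other family genes were tested in the same fit. Of these 16, 11 passed the filter, and 5 were called lower and 0 higher after crush under vehicle, with a median of -0.20, beside 24.4% lower and 23.6% higher over all genes: Grm4 (-0.61, adjusted p = 0.000214), Grm5 (-0.39, 0.0278), Grm3 (-0.33, 0.0317), Grin2d (-0.27, 0.0343) and Grik4 (-0.27, 0.000329). Under IPA 3 were lower (Grm4, Grik4 and Grin2d), beside 22.5% of all genes, and Grik3 was higher (0.20, adjusted p = 0.0134), while Grm5 (-0.19, adjusted p = 0.266) and Grm3 (-0.15, adjusted p = 0.321) were not called. The calls of Grm4 and Grik4 held under every alternative. The count under vehicle was 3 without replicate 1 of vehicle, or without replicate 2 or 3 of crushed vehicle, 3 in DESeq2 and 2 when only the 6 libraries compared were fitted. Grm5 lost its call without replicate 1 or 2 of vehicle or replicate 2 of crushed vehicle, Grm3 without those or replicate 3 of crushed vehicle, and Grin2d without replicate 2 or 3 of vehicle or replicate 1 or 3 of crushed vehicle. With each library's trend on GC content and length removed, 3 were higher (Grik2, Grik3 and Grid1, named after their values were seen) and 3 lower (Grm4, Grik4 and Grm3).

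Auxiliary subunits and pentraxins, which set where receptors sit and how they gate, held calls in both directions, as did all genes: of 17 genes 6 rose, 4 fell and 7 were not called under vehicle, with the same counts under IPA and medians of -0.025 and -0.085. Over all genes 23.6% rose and 24.4% fell under vehicle, and 21.2% and 22.5% under IPA. With single libraries left out, 8 to 10 of the 17 genes were called under either treatment. Shisa9, which encodes an AMPA receptor partner, had 0.520, 0.569 and 0.298 in vehicle and 4.44, 4.83 and 4.49 in crushed vehicle libraries (log2 change 2.41 ± 0.12). That value ran from 1.94 to 3.33 over the alternatives. Shisa9 passed the filter on low values only with its crushed libraries, so its call among the 6 adds no support. Neto1, a kainate and NMDA receptor partner, had 9.50, 8.93 and 8.65 in vehicle and 35.2, 29.3 and 29.3 in crushed vehicle libraries (1.73 ± 0.075, limma adjusted p = 4.06e-10). Neto2, its paralog and a kainate receptor partner, rose by 0.51 ± 0.078 (adjusted p = 0.000111). Cacng2, which encodes stargazin, the classical AMPA receptor chaperone, changed by -0.67 ± 0.083 (adjusted p = 1.56e-05), and Nptx1, a pentraxin that clusters AMPA receptors, by -0.69 ± 0.054 (adjusted p = 1.76e-07).

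**Figure D4:**
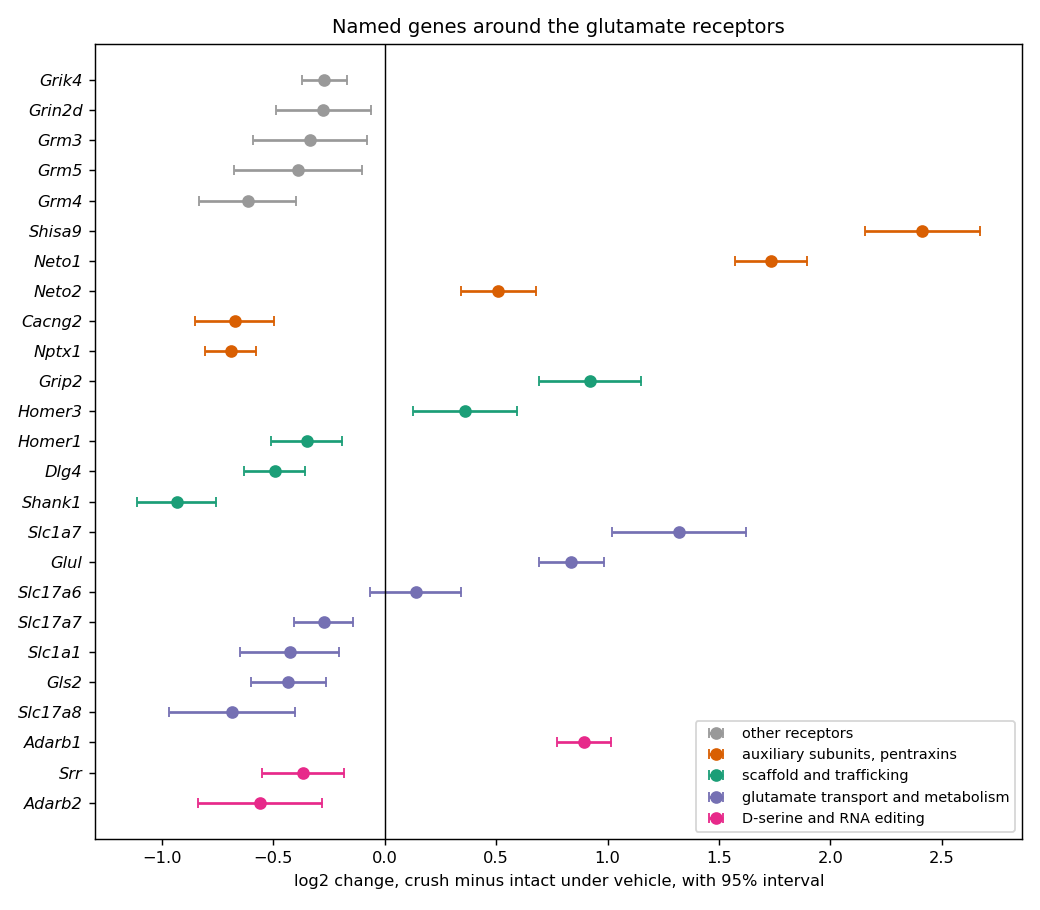
Log2 change after crush under vehicle, with 95% interval from limma, for the named genes around the receptors, coloured by list. Shisa9 and Neto1 lie farthest to the right at 2.41 and 1.73, Adarb1 at 0.89, and Shank1 farthest to the left at -0.93. The values of Shisa9 and Slc1a7 change with the processing, as given in the text.

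Of 19 scaffold and trafficking genes, 4 were higher and 6 lower under vehicle (median -0.13), near the 23.6% and 24.4% over all genes. Under IPA 2 were higher and 3 lower (median -0.083), where 21.2% and 22.5% of all genes were. Shank1 (-0.93 ± 0.082, limma adjusted p = 6.06e-07) and Dlg4, which encodes PSD-95 (-0.49 ± 0.063, adjusted p = 2.23e-05), fell, as did Homer1 (-0.35, adjusted p = 0.00152), a binder of metabotropic receptors. Homer1 was not called under IPA (-0.12, adjusted p = 0.212), and once the trend on GC and length was taken out its values were -0.18 under vehicle and -0.020 under IPA. Grip2, whose product binds GluA2 and GluA3, rose by 0.92 ± 0.11 (adjusted p = 8.80e-06), and Homer3 by 0.36 (adjusted p = 0.0141). The count under vehicle was 6 in place of 10 without replicate 1 of vehicle or replicate 3 of crushed vehicle, and the call of Homer3 was lost without either of them and without replicate 2 of crushed vehicle. With the GC and length trend removed, 6 were higher and 5 lower under vehicle, and 5 higher and 3 lower under IPA.

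Among 13 genes of glutamate transport and metabolism, 4 rose and 5 fell under each treatment, with medians of -0.078 under vehicle and -0.080 under IPA, beside 23.6% higher and 24.4% lower over all genes under vehicle and 21.2% and 22.5% under IPA. Glul, the glutamine synthetase of glia, had 267, 286 and 321 in vehicle and 483, 539 and 540 in crushed vehicle libraries (0.84 ± 0.069, limma adjusted p = 2.88e-07). Slc1a7, a glutamate transporter gene, was at 0.116 to 0.308 in vehicle and 0.935 to 1.37 in crushed vehicle libraries (log2 change 1.32 ± 0.14). At so low a level that value depends on the number added before the log: it was 0.90 with 1 added, 2.24 with 0.1 added and 2.73 in edgeR on the reads. Slc1a7 passed the filter on low values only through its crushed libraries, so its call among the 4 adds no support. Slc17a8 (-0.68, adjusted p = 0.000728), Gls2 (-0.43, adjusted p = 0.000424) and Slc1a1 (-0.42, adjusted p = 0.00383) fell. With single libraries left out, 7 to 9 genes of the list were called under vehicle and 8 to 9 under IPA. Of the vesicular transporters that mark glutamatergic neurons, Slc17a7 changed by -0.27 (adjusted p = 0.00225), and Slc17a6 by 0.14 under vehicle (adjusted p = 0.245) and 0.25 under IPA (adjusted p = 0.0489), a call lost when any 1 of 9 of the 12 libraries was left out, with an adjusted p of up to 0.216 without replicate 3 of crushed IPA. With the GC and length trend removed, Slc17a6 was called under vehicle too (0.22, adjusted p = 0.00532), and 6 genes of the list rose and 5 fell.

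The editing enzyme gene Adarb1 (ADAR2), which recodes the Gria2 transcript at the site that sets calcium entry, rose while Gria2 itself fell. It had 59.5, 65.8 and 63.5 in vehicle, 60.3, 61.5 and 63.4 in IPA, 118, 116 and 117 in crushed vehicle and 117, 109 and 100 in crushed IPA libraries. All 6 crushed libraries were above all 6 intact ones. On the log2 scale it changed by 0.89 ± 0.056 under vehicle (limma, adjusted p = 1.85e-08) and 0.81 ± 0.056 under IPA (adjusted p = 5.83e-08). Editing itself was not measured by these values. Of the 4 tested genes of its list (5 in all, with D-serine metabolism), 1 rose and 2 fell under vehicle: Adarb2 (-0.56, adjusted p = 0.00279) and Srr (-0.36, adjusted p = 0.00303), which makes the NMDA receptor co-agonist D-serine. Adarb2 was not called under IPA (-0.27, adjusted p = 0.115), and its value under vehicle was -0.37 with 1 added before the log and -1.09 in DESeq2. Most crushed libraries held Adarb2 below 0.5, so it passed the filter on low values only with its intact libraries, which limits its call. Srr fell under IPA as well (-0.34, adjusted p = 0.00507). Beside the counts of this list under vehicle, 23.6% of all genes were called higher and 24.4% lower.

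With IPA, no gene of the 10 passed the threshold. With the nerve intact, 0 of 10 were called by limma, edgeR or DESeq2, and over all genes 0% were called by limma and by edgeR and 3 genes by DESeq2, with 1902 genes at an unadjusted p under 0.05. Of the 10, 3 had an unadjusted p under 0.05. Grik5 was higher in all 3 IPA libraries than in any vehicle library (65.6 to 70.3 against 56.3 to 64.2), with a log2 difference of 0.22 ± 0.088 (limma, adjusted p = 0.408). Grin3a was lower in all 3 (23.4 to 25.5 against 27.8 to 30.2), with a difference of -0.24 ± 0.068 (adjusted p = 0.408). Gria4 differed by -0.18 ± 0.082 (adjusted p = 0.408) and its groups overlapped.

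Groups did not overlap for 4 of the 10: Grik5 and Grin1 were higher with IPA, and Grin3a and Gria2 lower. Over all genes that held for 12.7% in the higher and 12.5% in the lower direction. Grin1 differed by 0.16 ± 0.084 (limma, adjusted p = 0.409) and Gria2 by -0.13 ± 0.076 (adjusted p = 0.441), the latter with almost no gap between the lowest vehicle value, 23.32, and the highest IPA value, 23.29. The median over the 10 was -0.095 beside 0.0089 over all genes.

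After crush, IPA and vehicle libraries overlapped for all 10 genes, where groups were apart for 5.86% of all genes in the higher and 5.58% in the lower direction. Again 0 of 10 and 0% of all genes were called by limma; edgeR called 0 and DESeq2 15 genes, none of them among the 10, and 1258 genes had an unadjusted p under 0.05. Grin1 differed by 0.25 ± 0.084 (limma, adjusted p = 0.578) and Grik5 by 0.20 ± 0.088 (adjusted p = 0.604), the 2 of the 10 with an unadjusted p under 0.05. The median over the 10 was -0.054 beside -0.0021 over all genes.

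The test of whether IPA altered the response to crush called 0 of the 10 and 0% of all genes in limma; edgeR called 0 and DESeq2 3 genes, and 327 genes, none of them among the 10, had an unadjusted p under 0.05. The difference was largest for Grin3a, at 0.13 with a 95% interval of -0.076 to 0.34, and for Gria2, at 0.12 with an interval of -0.11 to 0.35. The medians were 0.051 over the 10 and -0.0057 over all genes. None of the other receptor, auxiliary, scaffold, transport or editing genes was called in any of the 3 tests of IPA.

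Base composition differed between the genes that lay higher and those that lay lower with IPA, none of which was called. Grik5 and Grin1, the 2 genes higher with IPA in intact ganglia, have transcripts of 61.7% and 59.4% GC, while the 8 lower ones lie between 36.8% (Gria2) and 49.2% (Grin3a). The trend of log2 values per 10% of GC was -0.10, -0.15 and -0.0050 in the vehicle libraries and 0.021, 0.066 and 0.0051 in the IPA libraries. It was -0.16, 0.071 and 0.054 after crush with vehicle and 0.14, 0.086 and -0.029 after crush with IPA. A curved trend on GC content and transcript length together was then removed from each library. The difference of Grik5 in intact ganglia was then 0.096 in place of 0.22. That of Grin1 was 0.056 in place of 0.16, and that of Grin3a -0.17 in place of -0.24. The shares of GC and of length in that step were not separated. After crush those of Grin1 and Grik5 were 0.16 and 0.080. The removal was chosen after the data were seen, and it would also take out a group difference that follows GC or length. The part of base composition in the IPA differences was not tested. The falls after crush under vehicle were still called for the same number of genes, 9, and Gria2 changed by -0.90, Gria4 by -0.72, Grik1 by -0.70 and Grin1 by -0.69.

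**Figure D5:**
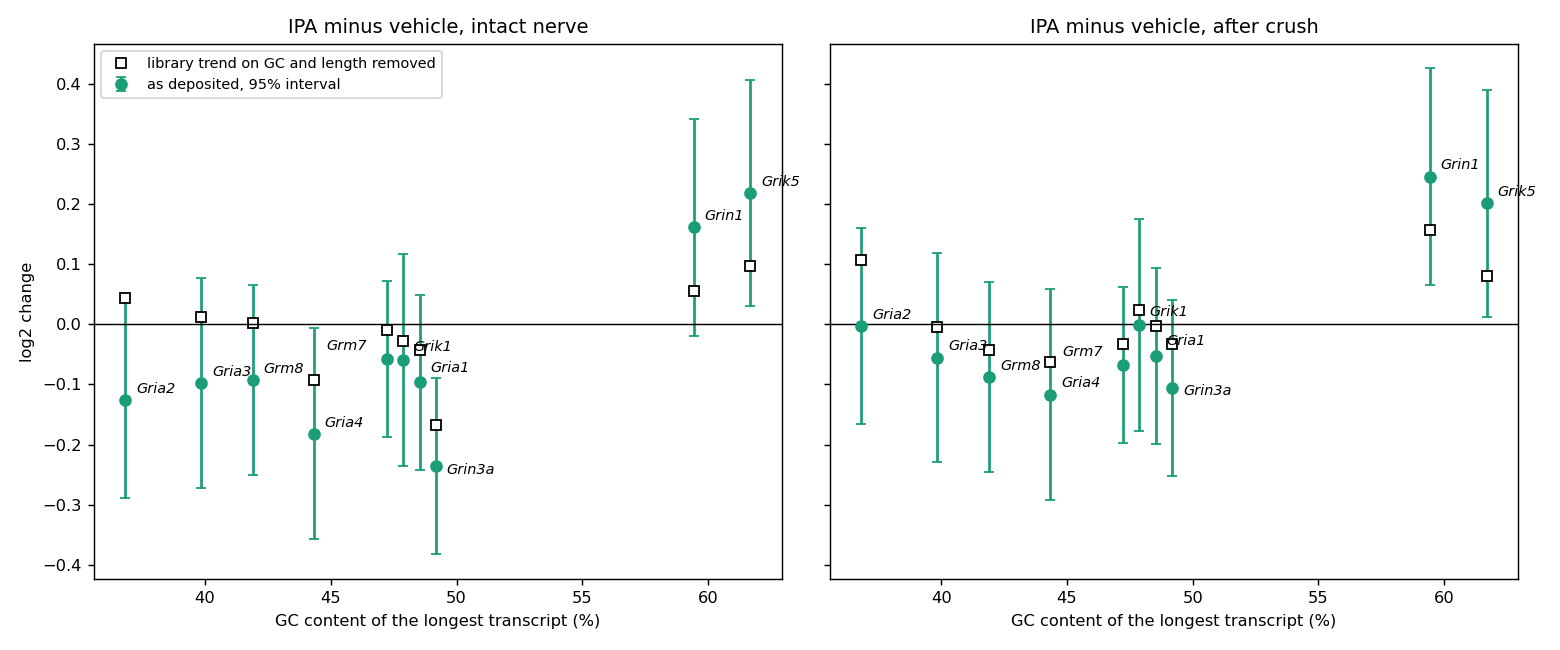
Log2 difference of IPA against vehicle for the 10 genes, in intact (left) and crushed (right) ganglia, against the GC content of the longest transcript; filled dots carry the 95% interval from limma, open squares are the values with each library's trend on GC and length removed. Grik5 and Grin1, at 61.7% and 59.4% GC, lie above 0 in both panels, and their open squares lie closer to 0.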

How the data were processed

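Poly(A) RNA was read as 75-base pairs from directional libraries, as the labels' protocols say. Tools named by the submitters' processing notes, without roles, are FastQC 0.10.1, STAR 2.7.0, R 3.5.0, limma 3.38.3 and edgeR 3.24.3, and the build is mm10. Which program counted the reads, and on which annotation, is not given in the sources used here. Deposited values behave as CPM that the authors scaled from whole reads, though the table is named for FPKM: 100% were whole multiples of a step per library within 1e-06, so reads were recovered, and gene length was not divided out.

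Values were taken as log2(value + 0.5), which understates changes of low genes. Genes at 0.5 or more in at least 3 of 12 libraries (15603) were fitted with 4 group means in limma-trend (limma 3.58.1, R 4.3.3; 8 residual degrees of freedom). Genes were called at a Benjamini-Hochberg adjusted p under 0.05. The model was run on simulated data in which a small set of genes changed in a single group, without trends shared within a library. That setting is simpler than these data, so it cannot show how the model handles such trends or many changed genes. Replicates are separate pools, per the labels, and no replicates were alike within sampling noise. Levels per kb use GENCODE M21 exons, which also give the gene coordinates. All 10 genes are named with every library. From the other lists, the 5 called genes with the largest change under vehicle are named, with Slc17a6, Slc17a7, Adarb1, Grin2b and the receptor genes; a few genes that the rule names are not reported here. Members and lists were chosen with earlier results of these data known.

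Alternatives were other pseudocounts, filters, scalings and thresholds, fewer libraries in the fit, the replicate block, DESeq2 1.42.0 and quasi-likelihood edgeR 4.0.16 on recovered reads, and each library left out. Removal of each library's GC and length trend, over the 97.9% of genes with a transcript, was chosen after seeing the data, as was the repeat for the other lists.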

Additional observations from a re-analysis of the deposited data

How the results depend on the processing

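The counts of receptor genes called (9, 9, 0, 0 and 0 in the order of the report) were the same under every alternative run. With the replicate block they were also 9, 9, 0, 0 and 0. Same-numbered libraries correlated at -0.25 to 0.29 after group means were removed. Differently numbered libraries were not set beside them, so these values cannot decide whether the numbers pair the libraries. Every change after crush kept its direction and its side of the threshold, except that of Grik5 under vehicle, at -0.17 to 0.010 over single libraries left out (adjusted p = 0.171 to 0.910 over all alternatives). No IPA difference or interaction of the 10 was called under any alternative, and several near 0 changed sign; the cause was not tested. With the GC and length trend removed, IPA differences in intact ganglia were 0.043 for Gria2, 0.012 for Gria3 and 0.0014 for Grm8, and after crush 0.11 for Gria2 and 0.024 for Grik1; interactions were -0.016 for Gria3 and -0.044 for Grm8. Under median-of-ratios scaling the IPA differences after crush were 0.00055 for Gria2 and 0.0019 for Grik1, and interactions 0.0022 for Grik5 and 0.0087 for Grm7 (0.0033 in DESeq2). With single libraries left out, IPA differences after crush ran from -0.066 to 0.061 for Gria2, -0.10 to 0.011 for Gria3 and -0.083 to 0.12 for Grik1. Interactions ran from -0.0053 to 0.088 for Gria1, -0.017 to 0.12 for Gria3, -0.0063 to 0.16 for Gria4, -0.024 to 0.18 for Grik1, -0.13 to 0.047 for Grik5, -0.013 to 0.17 for Grin1, -0.049 to 0.052 for Grm7 and -0.054 to 0.090 for Grm8. Genes near 1 read per library, such as Grin2a and Grin2b, are too shallow for any comparison.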
